A study of Mus musculus with 2 samples.

Results

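Among GFP+ Lin- c-Kit+ leukemia splenocytes profiled by single-cell RNA sequencing, cells carrying transcripts of complement component C1q were examined. They were selected on C1q itself: a cell barcode was C1q-positive when it held at least 1 unique molecular identifier (UMI, 1 counted transcript molecule) of C1qa, C1qb or C1qc, among barcodes with at least 500 detected genes and at most 10% mitochondrial UMIs. There were 190 such barcodes among 14292 kept barcodes of both libraries, out of 15114 deposited. The leukemia cells were fetal liver-derived hematopoietic cells of Usp18+/f mice and carried the truncated fusion AML1-ETO9a (AE9a) with GFP from a retrovirus. They were grown in sublethally irradiated wild-type C57BL/6 recipients, mice of both sexes, so that host cells remained in the spleen. Recipients were given oil (the Usp18+/f-labelled library) or tamoxifen (the Usp18+/Δ-labelled library), and the sort was made on spleens taken 3 days from the start of injections. Each library is a pool of 3 mice with 8000 cells targeted, and each group is 1 library. The sort removed cells bound by a lineage antibody cocktail, whose composition for these splenocytes is not given in the sources used here.

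C1q is the recognition part of the classical complement pathway. Its A, B and C chains are the products of C1qa, C1qb and C1qc, which assemble into 1 molecule that binds antibody complexes and dying cells. In the spleen C1q is made mainly by tissue macrophages. The macrophages of the red pulp, which take up old red cells and recycle their iron, are known for Spic, Vcam1, Slc40a1, Hmox1 and Cd5l. C1q transcripts are therefore of interest in a population sorted as c-Kit+ leukemia.

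The 3 genes lie side by side on the minus strand of mouse chromosome 4 in mm10. C1qb (ENSMUSG00000036905) spans chr4:136880129-136886187, C1qc (ENSMUSG00000036896) spans chr4:136889804-136893065 and C1qa (ENSMUSG00000036887) spans chr4:136895917-136898803. Because the 3 genes were counted together to choose the members, the promoters of C1qb and C1qc are shown, from RefSeq on GRCm38.p6, with 250 bases before and 50 bases after the start site. Of the 3 genes, C1qb and C1qc were matched in that table, and C1qa was not. Capitals mark GAGGAA, or TTCCTC where it lies on the other strand, the core bound by the myeloid factor PU.1.
C1qb, chr4:136886151-136886450, minus strand: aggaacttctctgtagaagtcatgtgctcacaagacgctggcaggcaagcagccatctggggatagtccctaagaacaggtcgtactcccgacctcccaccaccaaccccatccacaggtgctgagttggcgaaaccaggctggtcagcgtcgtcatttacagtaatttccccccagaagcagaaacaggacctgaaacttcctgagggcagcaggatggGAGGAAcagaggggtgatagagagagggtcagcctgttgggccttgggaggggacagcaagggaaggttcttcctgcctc
C1qc, chr4:136892865-136893164, minus strand: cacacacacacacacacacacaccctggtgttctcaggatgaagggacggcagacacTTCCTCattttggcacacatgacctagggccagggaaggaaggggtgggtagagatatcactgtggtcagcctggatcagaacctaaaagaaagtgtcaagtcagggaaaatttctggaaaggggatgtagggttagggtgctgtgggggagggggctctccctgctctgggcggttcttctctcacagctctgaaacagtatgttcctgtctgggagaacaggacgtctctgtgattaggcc
Each promoter held 1 match, at -30 and at -193 from the RefSeq start site. That start site of C1qc lies inside the gene span given above, which is from GENCODE, so the annotations differ in where the gene begins. Of 32851 promoters of 300 bases, 28.3% hold a match on either strand, so the match is a description of these windows and not of a bound site.

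The Usp18+/f-labelled library held 63690481 UMIs over 7281 barcodes, of which 6886 were kept with a median of 8670 UMIs, and the Usp18+/Δ-labelled library held 65146263 UMIs over 7833 barcodes, of which 7406 were kept with a median of 8148 UMIs. With 1 library per group no test was possible: the differences below compare these libraries, or barcodes within a library, and the 95% intervals cover counting error only. UMIs of 1 barcode are not independent, so intervals on summed UMIs are too narrow and shares of barcodes are given beside them. Usp18, the targeted gene, went against the labels: 354 UMIs (5.65 CPM, UMIs of the gene per 1000000 UMIs) were counted in the Usp18+/f-labelled library and 1520 (23.8 CPM) in the Usp18+/Δ-labelled library, a log2 ratio of 2.07 (95% interval 1.91 to 2.25). Usp18 is itself induced by interferon, and whether the counted 3′ ends lie in the deleted part was not tested. The libraries shared 15 barcode sequences, and 0 of them were C1q-positive in either library.

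C1q-positive barcodes were rare in both libraries and made up a larger share of the Usp18+/Δ-labelled library. They numbered 30 of 6886 (0.436%, exact 95% interval 0.294 to 0.621) in the Usp18+/f-labelled library and 160 of 7406 (2.16%, 1.84 to 2.52) in the Usp18+/Δ-labelled library. The ratio of shares was 4.96-fold, a log2 ratio of 2.31 (95% interval 1.75 to 2.87). Barcodes with 1 C1q UMI numbered 19 and 110, and those with 5 or more 5 of 6886 and 9 of 7406. With each barcode thinned to 3000 UMIs, so that depth is equal, 8 of 6428 barcodes (0.124%) and 69 of 7053 (0.978%) held a C1q UMI, a log2 ratio of 2.97 (1.94 to 4.01) that left out 458 and 353 shallower barcodes. Averaged exactly over all such draws for at least 1 C1q UMI, the shares were 0.183% and 0.995%, a ratio of 5.44-fold. With at least 2 C1q UMIs after thinning it was 3 and 11 barcodes and a log2 ratio of 1.74 (0.00611 to 3.48). The C1q counts chose these barcodes, so the shares are a description of these pools of mice.

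C1q-positive barcodes were more frequent among deeper barcodes in both libraries. When each library was divided by total UMIs into 10 depth bins of like size, the 4 shallowest bins of the Usp18+/f-labelled library held 1 C1q-positive barcode each (0.145%), and its 3 deepest bins held 8, 5 and 6 (1.16%, 0.727% and 0.872%). For the Usp18+/Δ-labelled library the share was 1.62%, 1.08% and 1.35% in the 3 shallowest bins and 2.03%, 3.51% and 2.57% in the 3 deepest. In all 10 bins the share was higher in the Usp18+/Δ-labelled library. For the comparisons below at equal depth, each C1q-positive barcode was set against the 5 C1q-zero barcodes of its own library nearest in total UMIs. The median depth was 11374 UMIs in C1q-positive and 11370 in matched barcodes of the Usp18+/f-labelled library, and 9070.5 and 9070 in the Usp18+/Δ-labelled library, against 8664.5 and 8132 in all C1q-zero barcodes.

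**Figure D1:**
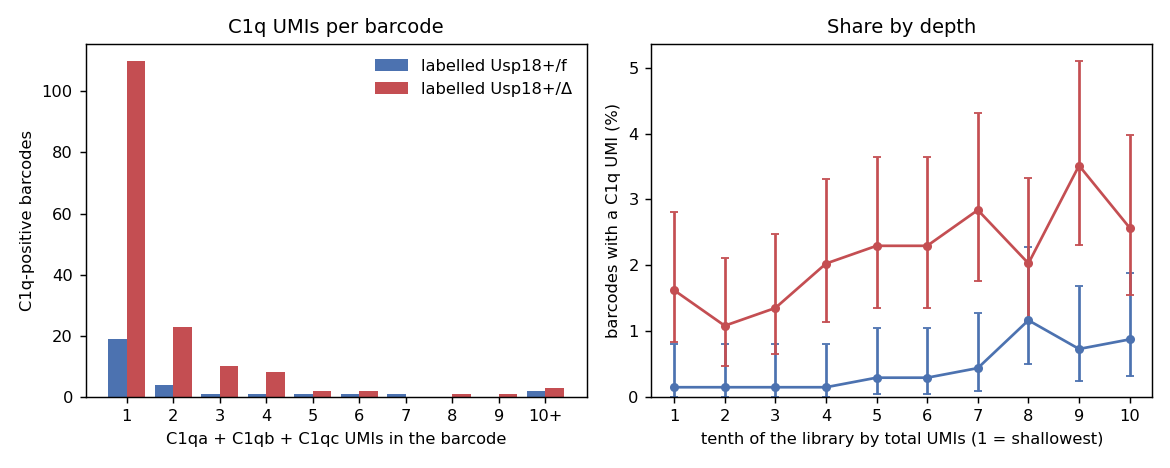
Left, number of C1q-positive barcodes (vertical axis) by C1qa, C1qb and C1qc UMIs in the barcode (horizontal axis) in the Usp18+/f-labelled library (blue) and Usp18+/Δ (red); 19 and 110 barcodes held 1 UMI. Right, percent of barcodes with a C1q UMI by depth bin of each library (10 bins, shallowest first), with exact 95% intervals (counting error only); the share ran from 0.145% to 1.16% in blue and from 1.08% to 3.51% in red.

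The members held 112 C1q UMIs in the Usp18+/f-labelled library and 325 in the Usp18+/Δ-labelled library. C1qa, which encodes the A chain, had 40 and 115 of them, C1qb 42 and 116, and C1qc 30 and 94. The 3 chains thus made up like shares in both libraries (35.7%, 37.5% and 26.8%, and 35.4%, 35.7% and 28.9%). Most members were at the threshold: 19 of 30 and 110 of 160 barcodes held 1 C1q UMI, 6 and 41 held 2 to 4, and 5 and 9 held 5 or more. The few highest barcodes held much of the C1q. The 5 in the Usp18+/f-labelled library had 69.6% of its C1q UMIs, and the 9 in the Usp18+/Δ-labelled library had 32.9%. Where at least 2 C1q UMIs were found, they were usually of different chains: 9 of 11 barcodes and 44 of 50 had UMIs of at least 2 of the 3 genes, and 4 and 14 had all 3. In barcodes with 1 C1q UMI, that UMI was of C1qa, C1qb or C1qc in 6, 7 and 6 barcodes and in 34, 39 and 37.

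Macrophage genes other than C1q were far more frequent in C1q-positive barcodes than in C1q-zero barcodes of equal depth, in both libraries. In the Usp18+/f-labelled library, 19 of 30 C1q-positive barcodes (63.3%) held a UMI of the 26-gene macrophage list, against 25 of 150 matched barcodes (16.7%), with 196 against 31 UMIs. Divided by all UMIs without C1q this was 540 against 17.1 CPM, a log2 ratio of 4.98 (95% interval 4.43 to 5.58). For the Usp18+/Δ-labelled library it was 105 of 160 barcodes (65.6%) against 121 of 800 (15.1%), with 536 against 157 UMIs, 353 against 20.7 CPM and a log2 ratio of 4.09 (3.83 to 4.36). Of the 26 genes, 23 had UMIs in the members of the Usp18+/f-labelled library and 24 in those of the Usp18+/Δ-labelled library, and each of these was higher in CPM than in matched barcodes, which a gene at 0 in members could not be. At 0 in members were Fcgr1, Mertk and Trem2 in the former, and Folr2 and Trem2 in the latter. Of these, Trem2 in the former and Folr2 in the latter had 1 UMI in matched barcodes and so were lower. The list was chosen with earlier results of these data known, and none of its genes reached 10 CPM over all kept barcodes. The few barcodes with most C1q carried much of the sum: without the 10 highest in each library the log2 ratio was 1.56 (0.45 to 2.62) and 3.44 (3.15 to 3.74).

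**Figure D2:**
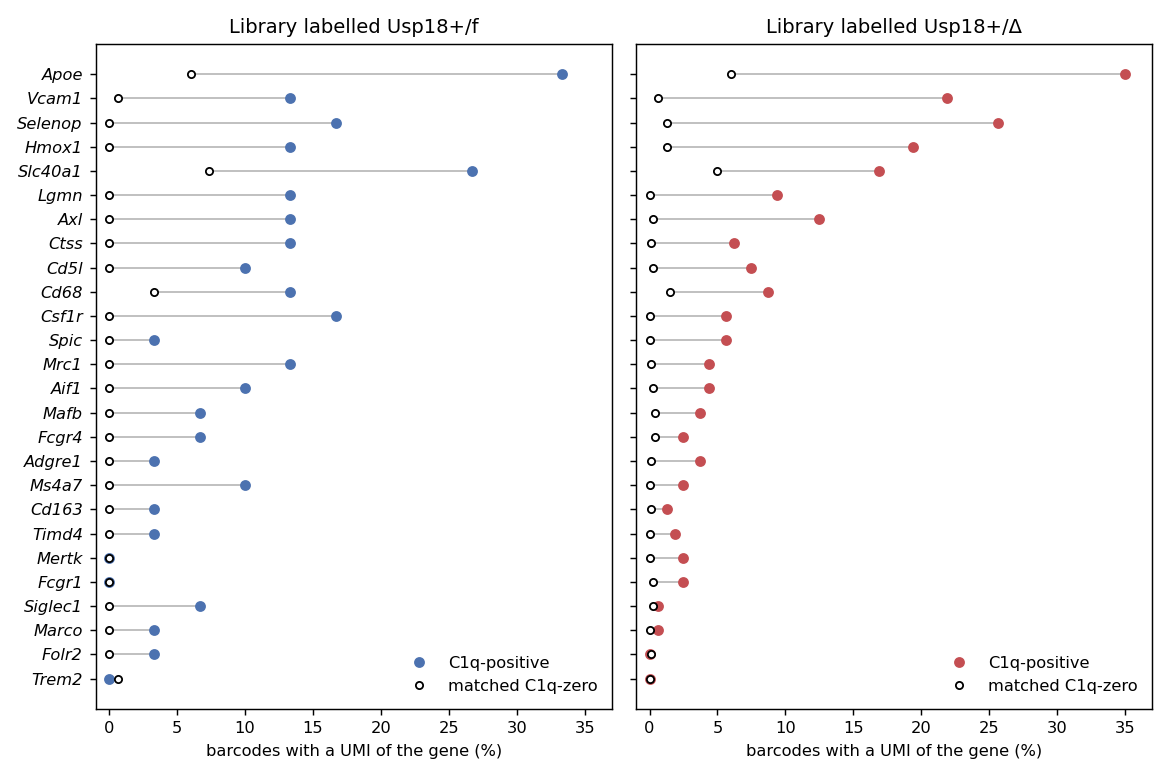
Percent of barcodes with a UMI of each macrophage gene (horizontal axis) in C1q-positive barcodes (filled points, 30 and 160) and matched C1q-zero barcodes (open points, 150 and 800), in the libraries labelled as Usp18+/f (left) and Usp18+/Δ (right), ordered by UMIs in members. Apoe leads at 33.3% and 35%, against 6% in matched barcodes of both libraries.

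The 10 macrophage genes with most UMIs in members were as follows. Apoe, the apolipoprotein of lipid transport, had 45 UMIs in 10 of 30 members against 10 UMIs in 9 of 150 matched barcodes, and 123 UMIs in 56 of 160 members against 53 in 48 of 800, log2 ratios of 4.49 (3.48 to 5.65) and 3.54 (3.06 to 4.03). It was also the macrophage gene found most often without C1q, in 4.94% and 5.62% of all C1q-zero barcodes. Slc40a1 encodes ferroportin, the iron exporter; it was found in 26.7% of members against 7.33% of matched barcodes, and in 16.9% against 5%. Hmox1, the heme-degrading oxygenase, had 13 UMIs in 4 members and 0 in matched barcodes of the Usp18+/f-labelled library, at least 21.7-fold higher when the 0 is set to 3 UMIs over the group. It had 50 UMIs in 31 members (19.4%) of the Usp18+/Δ-labelled library against 10 UMIs in 10 matched barcodes (1.25%). Selenop, a selenium carrier protein, was in 16.7% against 0% and 25.6% against 1.25% of barcodes.

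Vcam1, the adhesion molecule bound by VLA-4, had 34 UMIs in 4 members of the Usp18+/f-labelled library, with 33 of the UMIs in barcodes with 5 or more C1q UMIs, against 1 UMI in matched barcodes. In the Usp18+/Δ-labelled library it had 76 UMIs in 35 of 160 members (21.9%) against 6 UMIs in 5 of 800 (0.625%), a log2 ratio of 5.98 (4.8 to 7.48). Axl, a receptor for dying cells, was in 13.3% of members against 0% and in 12.5% against 0.25%, with at most 2 UMIs in any barcode. Lgmn, a lysosomal protease, had 10 and 25 UMIs in members and 0 in both sets of matched barcodes, at least 16.7-fold and 41.7-fold higher. Ctss, cathepsin S, had 4 against 0 and 21 against 1 UMIs. Cd5l, a scavenger-like secreted protein, had 8 against 0 and 15 against 3 UMIs. Cd68, a lysosomal membrane protein, had 4 against 5 UMIs (log2 ratio 2.0, -0.33 to 4.22) and 17 against 13 (2.71, 1.58 to 3.87).

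Most C1q-positive barcodes also held the leukemia genes, summed over all members close to the level of their matched barcodes; the 5 members with most C1q in the Usp18+/f-labelled library were below it, at 2052 against 2784 CPM. Kit, the receptor used in the sort, Ms4a2, a chain of the high-affinity IgE receptor, Gata1, a factor of erythroid and mast cells, and Car1, a carbonic anhydrase, were summed. They had 967 UMIs in members of the Usp18+/f-labelled library, 2663 CPM against 2746 in matched barcodes, a log2 ratio of -0.044 (95% interval -0.145 to 0.056). In the Usp18+/Δ-labelled library they had 4358 UMIs, 2872 CPM against 2709, a log2 ratio of 0.084 (0.037 to 0.131). Car1 had 675 of the 967 and 3329 of the 4358 UMIs, and Kit 34 and 142, so these sums mostly follow Car1. All 30 members of the former and 158 of 160 of the latter (98.8%) held at least 1 UMI of these 4 genes, against 150 of 150 and 798 of 800. Kit itself was found in 53.3% of members against 67.3% of matched barcodes, and in 50% against 53.1%. Ms4a2 was found in 96.7% against 97.3% and in 91.2% against 95.1%, Gata1 in 76.7% against 77.3% and in 62.5% against 63.9%, and Car1 in 100% against 98.7% and in 95% against 97%. For Kit and Gata1 the log2 ratio lay between -0.26 and -0.0086 with an interval that held 0 in both libraries, whereas it was 0.25 (0.031 to 0.47) for Ms4a2 in the former and 0.14 (0.085 to 0.19) for Car1 in the latter. Read the other way, 0.577% (14 of 2427) and 2.16% (50 of 2311) of the barcodes with UMIs of all 4 genes were C1q-positive, at median depths of 10526 and 9814 UMIs. The share over all kept barcodes was 0.436% and 2.16%, at lower median depths of 8670 and 8147.5 UMIs, so depth was not equal. Whether a C1q UMI came from expression of C1q by the cell was not tested, and it was not read as such.

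The same barcode often held both kinds of transcript. Of the members, 19 of 30 (63.3%, exact 95% interval 43.9 to 80.1) and 103 of 160 (64.4%, 56.4 to 71.8) held a macrophage UMI together with a leukemia UMI. A further 11 and 55 held leukemia UMIs and no macrophage UMI other than C1q. Only 2, both in the Usp18+/Δ-labelled library, held none of the 4 leukemia genes. Nearly all matched barcodes held a leukemia UMI too (150 of 150 and 798 of 800). The shares with both kinds therefore follow the macrophage shares, which were 16.7% and 15.1% in matched barcodes. Whether barcodes with both kinds held 1 cell, cells that adhered or were captured together, or leukemia cells with free or engulfed RNA was not tested. No doublet caller was run and no doublets were removed. The deepest 5% of barcodes held 10% (3 of 30) and 6.88% (11 of 160) of the members, and without them the macrophage log2 ratio was 5.42 (4.78 to 6.13) and 4.30 (4.02 to 4.58); this leaves in any doublet of ordinary depth, so it does not bear on those.

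**Figure D3:**
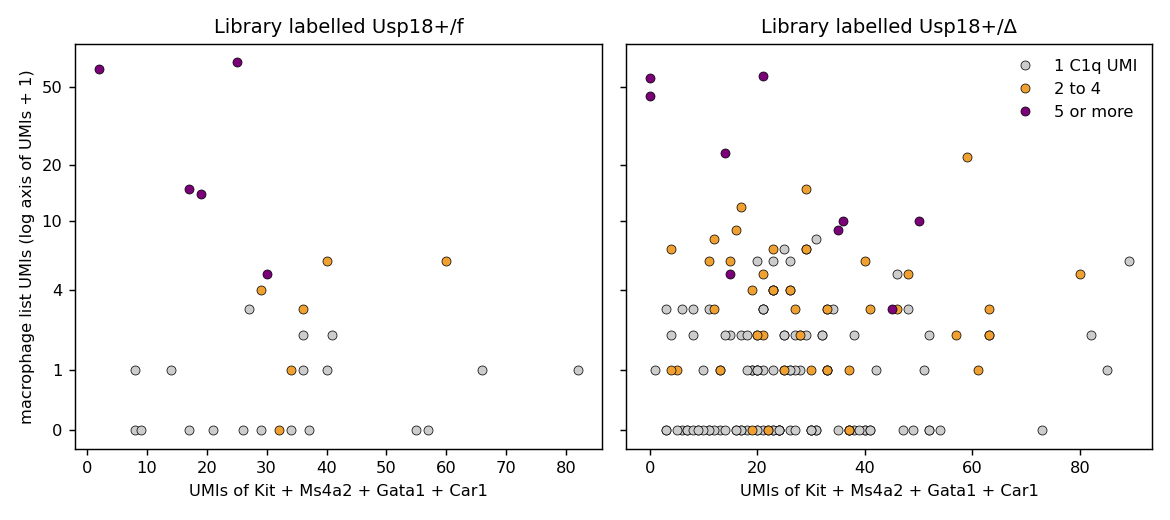
Each point is 1 C1q-positive barcode, with its summed UMIs of Kit, Ms4a2, Gata1 and Car1 (horizontal axis) and of the macrophage list (vertical axis, a log axis of UMIs + 1), in the libraries labelled as Usp18+/f (left) and Usp18+/Δ (right), coloured by C1q UMIs. Most barcodes with 5 or more C1q UMIs lie high, and most points lie well to the right of 0: the median leukemia sum was 31 and 24 UMIs.

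Macrophage genes were more frequent already in barcodes just inside the rule. With 1 C1q UMI, 9 of 19 barcodes (47.4%) held a macrophage UMI against 16 of 95 matched barcodes (16.8%), and 58 of 110 (52.7%) against 81 of 550 (14.7%). The log2 ratios were 1.63 (0.51 to 2.69) and 2.73 (2.35 to 3.11), and they increased to 3.64 and 4.52 with 2 to 4 C1q UMIs and to 8.67 and 6.39 with 5 or more. Just outside the rule, 10.9% and 12.9% of all C1q-zero barcodes held a macrophage UMI. At least 10 macrophage UMIs were found in 4 and 9 members, and in 0 and 2 of the C1q-zero barcodes, with a highest count of 4 and 40. At 1 C1q UMI, Vcam1 was found in 0 of 19 barcodes (exact 95% upper bound 17.6%) and in 17 of 110 (15.5%), so no difference between the libraries was detectable, where matched barcodes stood at 1.05% and 0.727%. The leukemia sum in barcodes with 1 C1q UMI was 2759 against 2738 CPM in matched barcodes and 2848 against 2695. In those with 5 or more it was 2052 against 2784 CPM, a log2 ratio of -0.44 (-0.77 to -0.12) with Kit at 1 UMI, and 2909 against 2567 CPM, 0.18 (-0.039 to 0.395).

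The barcodes with most C1q included both shallow and deep ones. The highest of the Usp18+/f-labelled library held 37 C1q UMIs among 1665 UMIs, with 62 macrophage UMIs that included 16 of Apoe, 12 of Vcam1 and 9 of Hmox1; Kit, Ms4a2 and Gata1 were at 0 and Car1 at 2. The 2 highest of the Usp18+/Δ-labelled library held 29 and 24 C1q UMIs among 1707 and 1686 UMIs, with 45 and 56 macrophage UMIs, 8 and 20 of them Vcam1, and no UMI of the 4 leukemia genes. These 3 were the shallowest members. The second of the Usp18+/f-labelled library was deep, with 23 C1q and 67 macrophage UMIs among 10576, and also held 5 Ms4a2 and 18 Car1 UMIs. The third of the Usp18+/Δ-labelled library held 15 C1q and 57 macrophage UMIs among 13292, with 13 of Hmox1, 14 of Apoe and 8 of Ctss, beside 21 leukemia UMIs. In count of UMIs, though not as a share of all UMIs, the macrophage sum of these deep barcodes was like that of the shallow ones, beside leukemia genes. The other members with 5 or more C1q UMIs held from 3 to 23 macrophage UMIs.

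UMIs of neutrophil, B and plasma cell and T cell genes were few in members. The neutrophil list was at 0 UMIs in members of the Usp18+/f-labelled library and at 1 in the other, the B and plasma cell list at 0 and 1, and the T cell list at 3 and 2. In matched barcodes these lists had 0 and 1, 1 and 5, and 1 and 11 UMIs. The log2 ratio of the T cell list was 3.91 (0.27 to 9.62) and -0.14 (-3.35 to 2.06). Its 3 UMIs in the Usp18+/f-labelled library were all of Lck. Cd3d, Cd3e, Cd3g, Cd4 and Cd8a were at 0 in all members. Among monocyte genes, Lyz2 (lysozyme) had 7 UMIs against 0 and 26 against 4 (log2 ratio 5.02, 3.49 to 7.0), whereas Ccr2 had 0 against 26 and 27 against 150, and Cx3cr1 had 1 against 3 and 0 against 19. Ly6c2, Fn1, Vcan and Itgam, the gene of CD11b, were at 0 in members of both libraries. The dendritic list (antigen-presenting genes) had 29 UMIs against 1 and 23 against 14, but 27 of the 29 were in 1 barcode, with 12 of H2-Aa and 9 of Cd74, and 14 of the 23 in another. Endothelial genes were in 23.3% of members against 14.7% and in 13.8% against 10%, and 3 of the 6 endothelial genes had UMIs in members of each library. Plvap had 6 of the 11 and 21 of the 27 endothelial UMIs in members, and Cdh5, Emcn and Kdr had 0. Plvap was also in 11.9% and 10.3% of all C1q-zero barcodes.

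Erythroid genes were far above the matched barcodes in members of the Usp18+/Δ-labelled library and close to them in those of the Usp18+/f-labelled library; the difference between the libraries was not tested. The summed list had 9626 CPM in members against 3772 in matched barcodes of the former, a log2 ratio of 1.35 (1.32 to 1.38), and 3172 against 2952 in the latter, 0.10 (0.011 to 0.196), with 5 of 7 genes higher. All 7 erythroid genes were higher in the former: Hbb-bs, a beta globin, had 4464 against 1964 CPM, Hbb-bt 2683 against 670, and Hba-a1, an alpha globin, 1796 against 869. Of 5 genes with at least 10 CPM over all kept barcodes, 4 were at least 1.5-fold higher in the former and 0 in the latter. Over all genes these shares were 1.23% and 8.62%. The 2 alpha and the 2 beta globin genes are near-identical pairs, so the split within each pair is uncertain. A few barcodes held most of this. In 9 members the sum was at least 500 UMIs, against 6 of 800 matched barcodes, and these 9 ranged from 512 to 2115 UMIs with 1 to 3 C1q UMIs each. Among all kept barcodes with at least 500 erythroid UMIs, a threshold chosen after the values were seen, 9 of 68 (13.2%, 6.23 to 23.6) were C1q-positive in the Usp18+/Δ-labelled library, against 151 of 7338 (2.06%) below it, at median depths of 7472.5 and 8155 UMIs. In the Usp18+/f-labelled library it was 0 of 50, which allows a share of up to 6% by a floor of 3 counts; the exact 95% upper bound is 7.11%, so the intervals of the libraries overlap. Of those 9 members, 8 held macrophage UMIs and all 9 held leukemia UMIs. Without the member with most erythroid UMIs the log2 ratio was 1.13 (1.10 to 1.16), and in the Usp18+/f-labelled library it was -0.27 (-0.38 to -0.17) without its own.

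**Figure D4:**
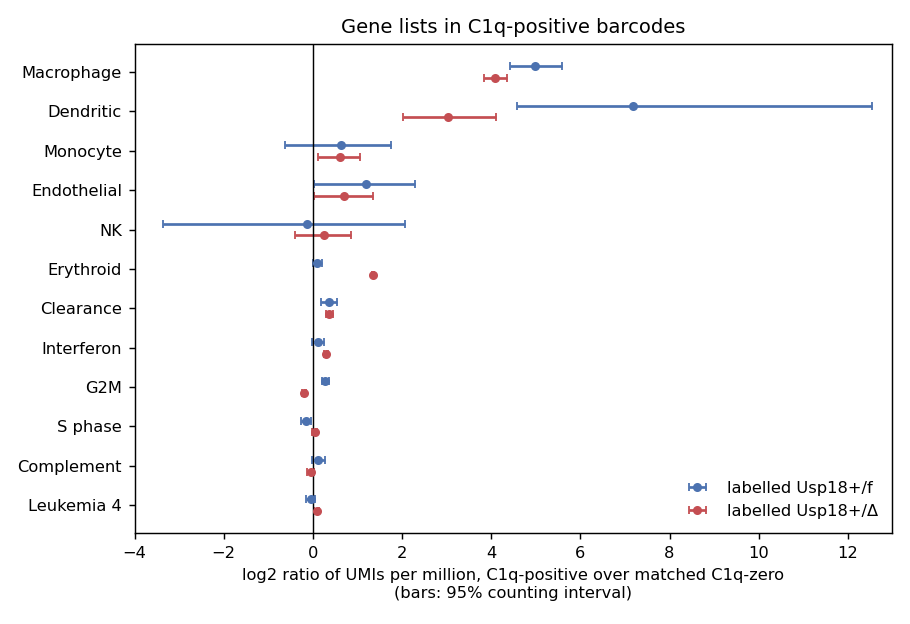
Log2 ratio of CPM in C1q-positive over matched C1q-zero barcodes (horizontal axis) for each gene list, in the libraries labelled as Usp18+/f (blue) and Usp18+/Δ (red); bars are 95% counting intervals. The macrophage list stands at 4.98 and 4.09, the erythroid list apart between the libraries at 0.10 and 1.35, and the leukemia genes at -0.044 and 0.084.

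Of the other 22 complement genes on the list, 7 had UMIs in members of the Usp18+/f-labelled library and 11 in those of the Usp18+/Δ-labelled library. C1ra and C1s1, the proteases that C1q activates, and C3 were at 0 UMIs in members and in matched barcodes of both libraries. Over the list the log2 ratio was 0.12 (-0.028 to 0.264) and -0.044 (-0.121 to 0.033), with 6 genes higher and 4 lower, and 6 higher and 8 lower. The sum was mostly Calr, calreticulin, at 851 against 780 and 608 against 670 CPM, with the complement inhibitors Cd55 and Cd59a next. Cd55 had 149 against 123 and 131 against 129 CPM, and Cd59a 124 against 160 and 194 against 173. Cfp, the alternative pathway's properdin, was named after its values were seen, with 8 against 2 UMIs and 10 against 7 UMIs (log2 ratio 4.32 and 2.84), and 5 of the 8 were in 1 barcode.

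Genes for the uptake and breakdown of dying cells were higher as a list, log2 ratio 0.37 in both libraries (0.19 to 0.54 and 0.29 to 0.45). Of the genes with a UMI, 12 of 15 and 16 of 19 were higher, some of them with UMIs in members alone. Of 10 genes with at least 10 CPM over all kept barcodes, 1 was at least 1.5-fold higher and 0 lower in each library. The shares of all genes higher and lower were 8.62% and 12.1% in the Usp18+/f-labelled library and 1.23% and 2.39% in the other. Axl, Mertk and Timd4 are also in the macrophage list. Ctsb, cathepsin B, had 234 against 158 and 273 against 159 CPM, although in the Usp18+/f-labelled library it was found in fewer of the members (66.7% against 81.3%), 25 of its 85 UMIs being in 1 barcode. Ctsd, cathepsin D, had 171 against 131 and 181 against 146 CPM, and Lamp1, a lysosomal membrane protein, 171 against 162 and 190 against 172 CPM. In the Usp18+/f-labelled library the list rested on the barcodes with most C1q: without the 10 highest its log2 ratio was -0.17 (-0.42 to 0.077).

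Among genes with at least 10 CPM over all kept barcodes, which no macrophage gene reached, Tmsb4x, Psap, Sat1 and Ftl1 had the highest lower interval bounds over both libraries. Of 7776 genes with at least 10 CPM over all kept barcodes, 8.62% were at least 1.5-fold higher and 12.1% at least 1.5-fold lower in members of the Usp18+/f-labelled library, and 1.23% and 2.39% in those of the Usp18+/Δ-labelled library; the former has 30 members, with a median of 15 UMIs a gene. The interval lay above 0 for 263 and 279 genes and below 0 for 203 and 368, and in both libraries at once for 23 genes above and 25 below. Tmsb4x, the actin-binding thymosin beta 4, led with 600 against 143 CPM and 472 against 122, log2 ratios of 2.07 (1.80 to 2.33) and 1.95 (1.80 to 2.09). It was found in 83.3% of members against 26% and in 76.9% against 29.4%. Psap, the precursor of the lysosomal saposins, had 138 against 51.8 and 119 against 57.6 CPM. Sat1, the polyamine acetyltransferase, had 99.1 against 46.8 and 69.2 against 43.0 CPM. Ftl1, the ferritin light chain, had 2032 against 1436 and 2196 against 1670 CPM, with UMIs in every member. Next came Itm2b, Ctsb, Gnptg (which marks enzymes for the lysosome), Wfdc12, B2m (the light chain of MHC class I) and Cd63 (a lysosomal tetraspanin), with log2 ratios from 0.33 to 1.46. Of the 136 Wfdc12 UMIs in the Usp18+/f-labelled library, 61 were in 1 barcode.

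The 5 genes whose upper interval bounds were lowest over both libraries, which is not the order of the fold, were Hspa1b, an inducible heat shock protein (118 against 187 and 23.7 against 39.3 CPM), Pus10, a pseudouridine synthase (2.75 against 21.5 and 12.5 against 22.9), mt-Nd1 of mitochondrial complex I (3599 against 4065 and 3926 against 4237), Npm3, a nucleolar protein (121 against 174 and 117 against 156), and the transcription factor Arid3a (2.75 against 19.3 and 15.2 against 24.4). Pus10 and Arid3a had 1 UMI each in members of the Usp18+/f-labelled library.

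Summed over members, cell cycle genes of the G2M list differed in direction between the libraries, but not at every level of C1q. The 20-gene G2M list was higher in members of the Usp18+/f-labelled library, at 4946 against 4064 CPM (log2 ratio 0.28, 0.21 to 0.36), with 18 of 20 genes higher. It was lower in members of the Usp18+/Δ-labelled library, at 2902 against 3332 CPM (-0.20, -0.25 to -0.15), with 19 of 20 genes lower. By C1q UMIs, the log2 ratio in the former was 0.21 (0.11 to 0.30) with 1, 0.62 (0.49 to 0.76) with 2 to 4 and -0.30 (-0.57 to -0.027) with 5 or more, where 101 of 130 G2M UMIs were in 1 of 5 barcodes. In the latter it was -0.22, -0.089 and -1.01. Mki67, the proliferation marker, had 774 against 705 and 476 against 570 CPM; Ube2c, a mitotic ubiquitin enzyme, 677 against 503 and 296 against 339; and Top2a, the topoisomerase of mitosis, 512 against 481 and 409 against 431. By single gene, 1 of 20 was at least 1.5-fold higher and 0 lower in the former, and 0 passed in the latter, where the shares of all genes higher and lower were 8.62% and 12.1% in the former and 1.23% and 2.39% in the latter. The S phase list stood at -0.15 (-0.26 to -0.043) and 0.041 (-0.009 to 0.091). Against all C1q-zero barcodes in place of matched ones the G2M log2 ratio was 0.54 and -0.044. The difference between the libraries was not tested.

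Interferon-stimulated genes, which USP18 restrains, were higher in the members of the Usp18+/Δ-labelled library than in those of the Usp18+/f-labelled library, as in C1q-zero barcodes. The list had 2923 against 1589 CPM in C1q-positive barcodes, a log2 ratio of 0.88 (0.75 to 1.01), and 2388 against 1458 in matched barcodes, 0.71 (0.65 to 0.77). Within the Usp18+/Δ-labelled library members were above their matched barcodes, log2 ratio 0.29 (0.24 to 0.34), with 33 of 37 genes higher; of 29 genes with at least 10 CPM, 6 were at least 1.5-fold higher and 0 lower, where the shares over all genes were 1.23% and 2.39%. Within the Usp18+/f-labelled library the log2 ratio was 0.12 (-0.0086 to 0.254), with 16 of 33 genes higher, and 3 of 29 genes were at least 1.5-fold higher and 8 lower, where the shares over all genes were 8.62% and 12.1%. Ly6e, a membrane protein with most UMIs of the list, had 730 against 694 CPM in members and matched barcodes of the Usp18+/Δ-labelled library and 779 against 637 in the other. Ifi27l2a had 326 against 254 and 85.4 against 76.0 CPM, and Bst2, the tetherin of enveloped viruses, 275 against 250 and 151 against 144. Isg15, a ubiquitin-like modifier that USP18 removes from proteins, was named after its values were seen: it was in 73 of 160 members (45.6%) against 33.1% of matched barcodes, and in 16.7% against 14%. Of its 277 UMIs in members of the Usp18+/Δ-labelled library, 60 were in 1 barcode. Usp18 had 42 UMIs in 33 members against 146 in 123 of 800 matched barcodes, and 3 UMIs in 3 members against 10 in 10 of 150.

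Within members, the macrophage list was lower in the Usp18+/Δ-labelled library, 353 against 540 CPM, a log2 ratio of -0.61 (-0.85 to -0.37). This rested on the barcodes with most C1q. Without the 10 highest of each library the log2 ratio was 2.04 (1.24 to 2.96), and in barcodes with 1 C1q UMI it was 1.28 (0.46 to 2.23), at 136 against 55.8 CPM. The median barcode stood at 140 against 82.9 CPM.

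Several macrophage genes, like C1q, were found in a larger share of all kept barcodes in the Usp18+/Δ-labelled library. For the macrophage list as a whole, the share of barcodes with a UMI was 11.2% and 14.0%, a log2 ratio of 0.33 (0.21 to 0.46), which is below that of the neutrophil (2.04), NK (0.97) and B and plasma cell (0.89) lists. By single gene, 20 macrophage genes had at least 10 UMIs in all and a UMI in each library. Of these, 16 were found in a share of barcodes at least 1.5-fold higher in the Usp18+/Δ-labelled library, and 1 in a share at least 1.5-fold lower. Of 13559 genes 6.67% were at least 1.5-fold higher, and over all genes 2.99% were at least 1.5-fold lower. This filter sums the libraries, and 9 of the 20 genes, 8 of them among the 16, had under 10 UMIs in the Usp18+/f-labelled library, so some passed it through the library where they were higher. With at least 10 UMIs in the Usp18+/f-labelled library required instead, a setting chosen after the values were seen, 8 of 11 macrophage genes were at least 1.5-fold higher and 0 lower, where 3.66% of 12580 genes were at least 1.5-fold higher. Vcam1 was found in 9 barcodes (0.131%) and 60 (0.81%), a log2 ratio of 2.63 (1.64 to 3.62), Selenop in 18 (0.261%) and 95 (1.28%), and Hmox1 in 23 (0.334%) and 94 (1.27%). Apoe, in 5.07% and 6.25% of barcodes, and Slc40a1, in 3.85% and 4.39%, differed less, as did Cd68 at 1.51% and 1.44%. Of the other lists, that share was 0.102% and 0.419% for neutrophil genes, 0.232% and 0.432% for B and plasma cell genes, 5.10% and 9.98% for NK genes (UMIs in members were of Nkg7 alone), and 1.31% and 1.43% for dendritic genes. It was 12.7% and 11.3% for endothelial, 18.0% and 19.6% for monocyte, 1.02% and 1.09% for T cell and 2.19% and 2.55% for platelet genes. Differences in the mice pooled, the sort and the treatment cannot be told apart here, because each is the same for all barcodes of a library.

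**Figure D5:**
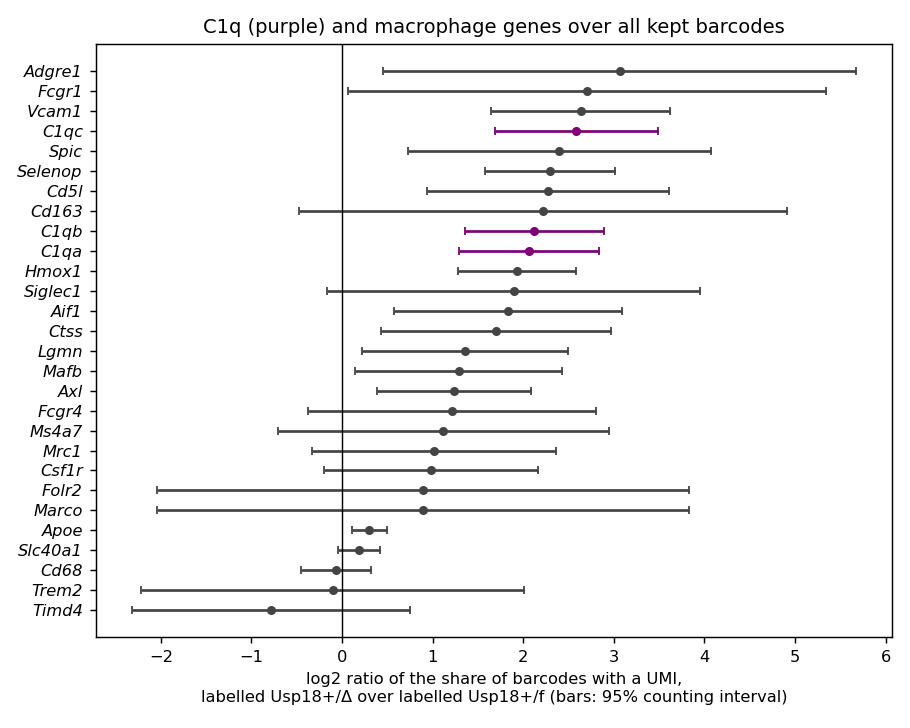
Log2 ratio, library labelled Usp18+/Δ over Usp18+/f, of the share of all kept barcodes with a UMI of each gene (horizontal axis), for the C1q genes (purple) and the macrophage genes with UMIs in both libraries (dark grey); bars are 95% counting intervals. Vcam1 stands at 2.63, Apoe at 0.30 and Cd68 at -0.064.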

How the data were processed

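Single-cell RNA-seq of 2 libraries, each 1 pool of 3 mice, was analysed. Per the file headers and the labels the authors used Cell Ranger 3.0.2 with mm10 on 10x 3′ V3 libraries; the deposited values are raw UMI counts per gene and barcode. Kept here were barcodes with 500 or more detected genes whose mitochondrial share of UMIs did not exceed 10%. Members had at least 1 UMI of C1qa, C1qb or C1qc, and each was matched without reuse to the 5 C1q-zero barcodes of its library nearest in total UMIs without C1q. UMIs were summed and divided by totals without C1q. No p-value was computed, because barcodes of 1 library are not replicates. The 95% intervals, for counting error only, are Clopper-Pearson for shares, conditional binomial for ratios of summed UMIs, and score intervals where 2 shares are divided. Thinning drew 3000 UMIs per barcode without replacement. No doublet caller was run and no doublets were removed; the values without the deepest 5% are a check on depth. Members, lists and tests were chosen with earlier results of these data known. Named genes were the C1q, leukemia and Usp18 genes, the 10 macrophage genes with most UMIs in members, the 3 genes with most UMIs of each list described, and over genes with at least 10 CPM (UMIs per 1000000) in all kept barcodes the 10 with the highest and the 5 with the lowest interval bounds in both libraries. Genes at 0, Isg15, Cfp and the gene of CD11b were named after their values were seen. Python 3.11.15, numpy 2.4.6, scipy 1.17.1 and statsmodels 0.14.6 were used, and the ratio and matching steps were tested on simulated data. Mx2 was not matched to the files, so 39 interferon genes were used. Coordinates come from GENCODE on GRCm38. Part of the genotype shared by both groups is not reported here.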

Additional observations from a re-analysis of the deposited data

Results flagged for a closer look

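Summed over members, the G2M list stood on opposite sides of the matched barcodes in the libraries, with a log2 ratio of C1q-positive over matched C1q-zero barcodes of 0.283 (95% interval 0.208 to 0.358) in the Usp18+/f-labelled library and -0.2 (-0.246 to -0.153) in the Usp18+/Δ-labelled library; the difference was not tested. The intervals are those of summed UMIs, and the members were 30 and 160 barcodes. In the Usp18+/f-labelled library the 5 members with 5 or more C1q UMIs were lower too, at -0.296 (-0.575 to -0.0269), with 101 of their 130 G2M UMIs in 1 barcode.

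C1q UMIs were also found in the barcodes that the filter on genes and mitochondrial UMIs left out. In the Usp18+/Δ-labelled library 10 of 427 such barcodes (2.34%, exact 95% interval 1.13 to 4.26) held 47 C1q UMIs, with up to 16 in 1 barcode, against 3 of 395 (0.759%, 0.157 to 2.20) with 4 C1q UMIs in the Usp18+/f-labelled library. The intervals overlap, and the left-out barcodes had a median of 2226 and 867 UMIs.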

How the results depend on the processing

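No paired analysis was possible because both groups hold a single library. Of 152 alternatives over 22 results, 100 lay within the 95% interval of the value reported or, for counts of genes, within 1.5 times of it. With at least 2 C1q UMIs required, the log2 ratio of C1q-positive shares between the libraries was 1.74. In what follows values are given first for the Usp18+/f-labelled and then for the Usp18+/Δ-labelled library. The macrophage log2 ratio over matched barcodes was 6.52 and 5.28 with at least 2 C1q UMIs, 6.64 and 5.53 with at least 2 C1q genes, 1.56 and 3.44 without the 10 barcodes with most C1q, and 0.717 and 4.69 with at most 5% mitochondrial UMIs, which left 3 and 23 members. For the leukemia genes it was -0.148 in the former with at least 2 C1q UMIs, -0.189 and 0.136 with at least 2 C1q genes, and in the latter 0.167 with 1 matched barcode per member and -0.158, the opposite sign, with at most 5% mitochondrial UMIs. The macrophage log2 ratio between the members of the libraries turned positive with at most 5% mitochondrial UMIs (5.36) and without the 10 barcodes with most C1q (2.04), and was -0.895 with at least 2 C1q genes.

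The counts of genes past 1.5-fold also depended on the settings. Of macrophage genes found in a larger share of barcodes of the Usp18+/Δ-labelled library, 16 became 8 with at least 10 UMIs in the Usp18+/f-labelled library and 21 with no minimum. Genes higher numbered 1193 and 282 with 1 matched barcode per member, 2012 and 1077 with at most 5% mitochondrial UMIs, 1249 and 493 with at least 2 C1q UMIs, 1458 and 534 with at least 2 C1q genes, 325 and 34 at 20 CPM, and 1677 and 1467 over every gene with a UMI in both groups, and in the latter 59 against all C1q-zero barcodes. Genes lower numbered 2653 and 1831, 1915 and 757, 2031 and 882, and 495 and 63 under the mitochondrial, UMI, gene and 20 CPM settings, and in the latter 311 with 1 matched barcode and 796 over every gene.

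Alternatives chosen after seeing the data were run on the other lists. Erythroid genes in the former turned lower without the member with most of them (-0.269), without the 10 barcodes with most C1q (-0.0652) and against all C1q-zero barcodes (-0.34), and in the latter were 1.13 without that member and 1.27 against all C1q-zero barcodes. The G2M list was 0.201 in the former without the member with most of it, and 0.537 and -0.044 against all C1q-zero barcodes. The interferon list in the latter was 0.234 against all C1q-zero barcodes. Genes for clearing dying cells in the former were 0.138 without the member with most of them and -0.166 without the 10 barcodes with most C1q. The causes of these shifts were not tested.

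Limits are the single library per group, the pooling of mice, the 30 members of the Usp18+/f-labelled library and the low counts of nearly every macrophage gene.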

Other observations

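The members also held the other leukemia genes that took no part in choosing the comparison. Fcer1a, the IgE-binding chain of the receptor that holds Ms4a2, had 173 against 135 CPM in C1q-positive and matched barcodes of the Usp18+/f-labelled library, a log2 ratio of 0.36 (95% interval -0.061 to 0.77), and 324 against 223 CPM in the Usp18+/Δ-labelled library, 0.54 (0.39 to 0.68). Gata2, a factor of progenitors and mast cells, had 215 against 202 and 157 against 186 CPM, log2 ratios of 0.091 (-0.28 to 0.45) and -0.25 (-0.45 to -0.05). Cpa3, a mast cell protease, had 49.6 against 57.8 and 137 against 159 CPM, log2 ratios of -0.22 (-1.03 to 0.51) and -0.22 (-0.44 to -0.0031). Myb, a factor of progenitors, had 223 against 239 and 217 against 224 CPM. Of the 8 leukemia genes 0 were 1.5-fold higher or lower in either library, where the shares over all genes were 8.62% and 12.1%, and 1.23% and 2.39%.

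Platelet genes had 1 against 7 and 6 against 25 UMIs in members and matched barcodes, nearly all of Itga2b. Barcodes with no UMI of Kit, Ms4a2, Gata1 or Car1 were few and shallow. Of 23 in the Usp18+/Δ-labelled library, at a median of 1846 UMIs, 2 were C1q-positive and held 53 of the 325 C1q UMIs of their library. Of 28 in the Usp18+/f-labelled library, at a median of 1035 UMIs, 0 were C1q-positive, which allows a share of up to 10.7% by a floor of 3 counts (exact 95% upper bound 12.3%).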
